A study of Drosophila melanogaster with 12 samples.

Results

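The extensions described here are stretches at the 3′ end of autosomal Drosophila genes that begin inside the annotated gene and run past its annotated end. They were taken from 4 deposited tables as the rows not on the X chromosome whose extension overlaps the annotated gene by 1 base or more without lying wholly within it. This gave 598 of the 2634 listed extensions, in 341 genes. There were 207 of them in the table of SG against SC, 123 in that of SG-tut, 132 in that of SG-bam and 136 in that of SG-bgcn. By chromosome arm, 87 of the genes lie on 2L, 81 on 2R, 68 on 3L, 95 on 3R and 10 on chromosome 4.

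The study sequenced RNA from testes in 12 libraries. SG, with 3 libraries, is mitotic germ cells cut by laser from wild-type testes. SG-tut (allele tut3), SG-bam (bamBG over bamΔ86) and SG-bgcn (bgcn20093 over bgcnQS2), with 2 libraries each, are mutant testes in which most cells are mitotic germ cells. They were used without dissection, so other cells of the testis may be included. SC, with 3 libraries, is meiotic germ cells cut by laser from wild-type testes, and each of the other 4 groups was set against it. The age of the flies is not given in the sources used here.

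A messenger RNA ends where the cleavage and polyadenylation machinery cuts it, and many genes have more than 1 such site. Use of a distal site lengthens the 3′ untranslated region (3′ UTR), the part that RNA-binding proteins and microRNAs read to control translation, stability and localisation. Drosophila testis is known for short 3′ UTRs. A stretch that crosses the annotated end holds sequence that the annotation counts as part of the gene and sequence that it does not.

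All levels below are the authors' averages per group in an unnamed unit. No value per library is used, so there is no replicate error, and sequencing depth is unknown. The share of an extension is its level divided by the level of its gene, in percent, capped at 100% by the authors. In 2634 of 2634 rows the authors' P was below 0.05 and the levels of the extension in both groups were more than 2-fold apart, so the high percentages of calls given below follow from how rows were listed. A call here means an FDR of 0.05 or less in the authors' deposited table, with the direction taken from the share. The labels and file headers do not say whether that FDR tests the extension level or the share. In 2634 of 2634 rows the group with the higher share also had the higher extension level. SG and SC were amplified with a SMARTer kit for low input, while mRNA of the mutant testes was enriched on beads and put through another library kit, so genotype, dissection and kit cannot be told apart between the mutants and SC. In such bulk samples fewer cells of a type and less RNA per cell cannot be told apart. Markers of somatic, muscle and accessory gland cells were listed for 6 of 49 genes in the SG table, of which 5 had the higher gene level in SG and 1, dally, the higher one in SC. Their summed gene level was 138.8 in SG and 163.8 in SC, of which dally made up 5.13 in SG and 138.8 in SC. Higher gene levels than in SC were found for 2 of 2 listed markers with SG-tut, 3 of 3 with SG-bam and 4 of 5 with SG-bgcn, with sums of 4147 in SG-tut and 367.5 in SC, 840.9 in SG-bam and 370.2 in SC, and 2409 in SG-bgcn and 513.4 in SC. No listed marker was at 0, and the part of these cells in the results was not tested. Spermatocyte and spermatid genes were listed for 5 to 7 of 75 genes per table, with summed gene levels of 200.5 in SG and 2657 in SC, 2.34 in SG-tut and 11677 in SC, 42.9 in SG-bam and 1851 in SC, and 24.5 in SG-bgcn and 3657 in SC.

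The crossing extensions had a median length of 820 bases, with a median of 155 bases past the annotated end. Set against the Ensembl annotation, 595 of the 598 had a matching gene, and all 595 of these touched an annotated 3′ UTR of that gene. In 485 of the 595 the part inside the gene was 3′ UTR throughout, and in 110 it also held intron or other gene sequence. The extension began on the base after the annotated end of a transcript of the same gene in 155 of 595 (26.1%), against 677 of 2167 (31.2%) over all autosomal extensions, and within 50 bases past such an end in 285 (47.9%), against 1210 (55.8%). A shorter annotated transcript thus ends at or just before the start in these. Lengths were multiples of 10 bases in 514 of the 598. For 145 genes that crossed in 2 or more tables the proximal base was identical in 135 and the distal base in 41, and the distal bases lay a median of 60 bases apart. The extension, and with it the SC share, can therefore differ between tables for 1 gene.

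stg, a Cdc25 phosphatase that activates Cdk1 on entry into mitosis, illustrates the layout. The gene (FBgn0003525) lies on the minus strand of chromosome arm 3R from 29251826 to 29255800 (dm6). Its extension began at 29252142 in all 4 tables and ended at 29251523 in the SG table, 29251363 in that of SG-tut, 29251793 in that of SG-bam and 29251673 in that of SG-bgcn. It ran past the annotated end by 303, 463, 33 and 153 bases in these tables. The stg extension level was 3.62 in SG, 2.46 in SG-tut, 12.0 in SG-bam and 5.08 in SG-bgcn, while in SC it lay between 0.00551 and 0.0123. The level was highest where the stretch past the end was shortest. In SC stg had a gene level of 0.57, so the SC shares rest on little signal.

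Most crossing extensions took a larger share of the gene in mitotic cells. For SG, 202 of 207 were called in either direction (97.6%), where the background over all 751 listed rows was 96.4%. Of the 207, 198 were called with the higher share in SG (95.7%, background 88.5%) and 4 with the higher share in SC (1.93%, background 7.86%). With SG-tut, 119 of 123 were called (96.7%, background 97.1%), with 95 higher in SG-tut (77.2%, background 71.9%) and 24 in SC (19.5%, background 25.2%). With SG-bam, 129 of 132 were called (97.7%, background 95.6%), with 110 higher in SG-bam (83.3%, background 73.5%) and 19 in SC (14.4%, background 22.1%). With SG-bgcn, 130 of 136 were called (95.6%, background 94.5%), with 109 higher in SG-bgcn (80.1%, background 71%) and 21 in SC (15.4%, background 23.5%). These percentages lie within 10 percentage points of their backgrounds, and no test of the difference was run. Not called were 5, 4, 3 and 6 rows.

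**Figure D1:**
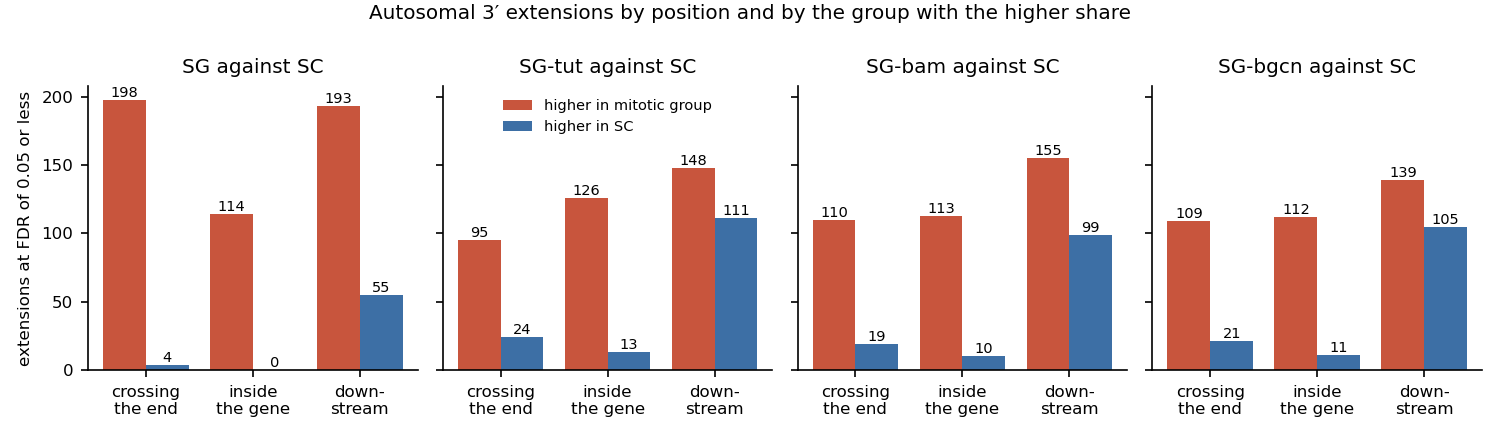
Number of autosomal extensions with an authors' FDR of 0.05 or less (y axis) that cross the annotated end, lie inside the gene or lie downstream of it, in each comparison. Red bars count those with the higher share in the mitotic group and blue bars those with the higher share in SC: 198 and 4 crossing extensions in the SG panel, 95 and 24 in that of SG-tut, 110 and 19 in that of SG-bam and 109 and 21 in that of SG-bgcn.

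Crossing extensions resembled those inside the gene in direction more than those downstream of it. Of the SG calls, 98.0% of crossing, 100% of inside and 77.8% of downstream extensions were higher in SG. In the mutants these percentages were 79.8%, 90.6% and 57.1% with SG-tut. They were 85.3%, 91.9% and 61.0% with SG-bam, and 83.8%, 91.1% and 57.0% with SG-bgcn. The median share of crossing extensions was 23.6% in SG and 1.37% in SC, 6.90% in SG-tut and 1.39% in SC, 10.1% in SG-bam and 1.63% in SC, and 9.12% in SG-bgcn and 1.64% in SC. For extensions inside the gene the median share was 21.4% in SG, 20.5% in SG-tut, 20.9% in SG-bam and 21.4% in SG-bgcn. For downstream extensions it was 2.65%, 1.53%, 1.85% and 1.45% in these groups. The SG-tut median of crossing extensions depended on low values and on the rule: it was 11.9% without extensions listed at 0, 10.5% with 0.01 added to both levels, and 3.60% when 50 bases inside and past the end were required. In the mutants the crossing extensions, as listed, had a median between the other classes, and in SG it was near that of the inside class. These are descriptions of listed rows without a test. At the limits of the class, the 67 crossing extensions that reach 10 bases or fewer past the end had a median share of 38.02% in the mitotic group and 6.19% in SC, and the 68 inside ones that stop 10 bases or fewer before it 42.5% and 4.35%. The 27 crossing extensions that start 10 bases or fewer before the end had 2.09% in the mitotic group and 0.105% in SC, and the 341 downstream ones that start on the base after the end 1.11% and 0.617%.

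**Figure D2:**
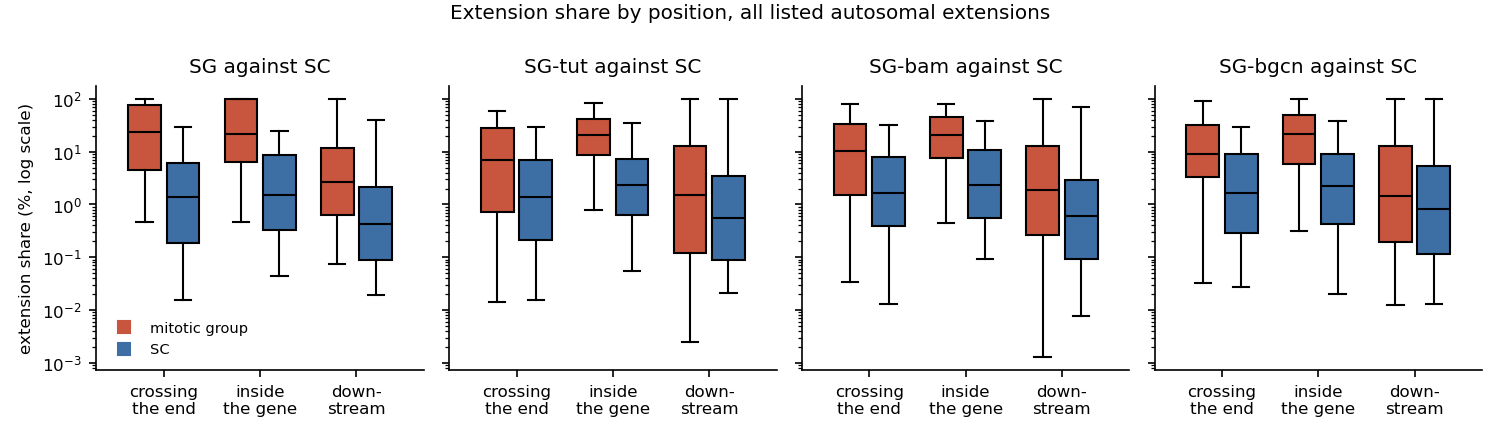
Extension share in percent on a log axis for all listed autosomal extensions by position, with the mitotic group in red and SC in blue. Boxes span the quartiles with the median as a line, and whiskers reach the 5th and 95th percentiles; crossing extensions have medians of 23.6% in SG and 1.37% in SC.

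Reach past the annotated end varied from 1 base to 5646 bases. The median was 179 bases in the SG table, 158 in SG-tut, 156.5 in SG-bam and 139.5 in SG-bgcn. Of all rows, 166 of the 598 reached 50 bases or fewer and 46 more than 1000. In 171 of the 598 more than 50% of the extension lay past the end. Extensions with the shortest reach had the largest shares. In the SG table the 48 that reached 50 bases or fewer had a median share of 75.5% in SG and 3.07% in SC. The 124 that reached 51 to 500 bases had 16.7% in SG and 0.872% in SC, and the 35 beyond 500 bases 9.02% in SG and 0.658% in SC. In the SG-tut table the medians for these classes were 27.1%, 3.202% and 4.33% in SG-tut, against 4.27%, 0.763% and 1.36% in SC. They were 23.2%, 6.53% and 3.93% in SG-bam, against 4.17%, 1.32% and 0.979% in SC, and 28.5%, 5.62% and 6.52% in SG-bgcn, against 4.11%, 1.67% and 1.15% in SC. No test of this trend was run.

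**Figure D3:**
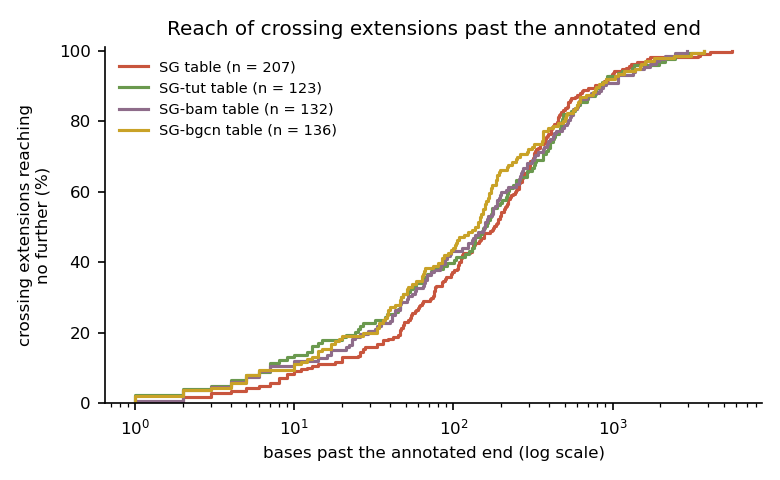
Cumulative percentage of crossing extensions (y axis) that reach no further past the annotated end than the number of bases on the x axis, which is logarithmic, with 1 line per table. The 4 lines run close together, with medians between 139.5 and 179 bases.

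The longest stretch past an annotated end was that of CG17683, which reached 5646 bases in the SG table (2R, plus strand, extension from 4133101 to 4139130). Its share was 2.23% in SG and 1.45% in SC. Atf6, a transcription factor of the response to stress in the endoplasmic reticulum, followed with 4088 bases and a share of 19.2% in SG and 1.77% in SC. RpL10, a protein of the large ribosomal subunit, reached 3544 bases with SG, 2944 with SG-tut, 2934 with SG-bam and 3114 with SG-bgcn. Its extension ended at 23089646 on chromosome arm 3L in the SG table, while the gene lies from 23093190 to 23095471 on the minus strand. The RpL10 share stayed small, at 0.039% in SG, 0.0588% in SG-tut, 0.0648% in SG-bam and 0.0328% in SG-bgcn, against at most 0.00377% in SC. Yeti, a chromatin protein, reached 3451 bases with a share of 0.505% in SG and 0.00574% in SC, and 3751 bases with 0.186% in SG-tut and 0.0053% in SC. For sxc, the O-GlcNAc transferase, the reach was 340 bases for SG but 2130 for SG-tut and 2140 for SG-bam. The sxc share was 2.09% in SG and 0.0776% in SC, 0.382% in SG-tut and 0.0681% in SC, and 0.888% in SG-bam and 0.072% in SC. srl, the fly PGC-1 coactivator, reached 1715 bases for SG with a share of 2.13% in SG and 0.553% in SC. None of these touched an exon of another gene, where exons of transposable elements were not considered.

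Exons annotated as transposable elements were left out of the search for neighbours. An exon of another annotated gene was touched by 56 of the 598 crossing extensions (9.36%). Of these, 36 touched an exon on the same strand and 20 only on the opposite strand. The percentage was 3.09% for inside and 25.3% for downstream extensions. Whether the counting used strand is not stated, so signal in these stretches may belong to the neighbour. Among the genes named here, the extension of Su(var)2-10 touched GstE13, that of Orct2 touched Orct, that of NijC touched Past1, that of gammaTub37C touched CG46059, that of psq touched CG11883, that of aPKC touched CG10257, that of Gr61a touched Cep290 and that of CG12025 touched CG13924.

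The genes called with the largest gain of share in SG were CG31324, Acsl, Sur-8, CG8298 and dally, among genes with a gene level of at least 1 in both groups. Acsl, a long-chain acyl-CoA synthetase, had an extension level of 2.21 in SG and 0.0835 in SC, and a gene level of 19.7 in SG and 860 in SC. Its share was 11.2% in SG and 0.0097% in SC, and the authors' deposited table gave it an FDR of 8.48e-07. Sur-8, a scaffold of Ras signalling, had an extension level of 10.2 in SG and 0.18 in SC at a gene level of 20.3 in SG and 248 in SC. Its share was 50.4% in SG and 0.0726% in SC. dally, a cell-surface glypican and here also a somatic marker, had a share of 61.7% in SG and 0.132% in SC. The gene levels of all 5 were lower in SG, so both the numerator and the divisor of the share moved. CG31324 had a gene level of 4.13 in SG and 285 in SC, and CG8298 of 8.67 in SG and 83.7 in SC.

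In the mutants CkIIalpha-i3, an interactor of casein kinase 2, was among the largest gains of all 3 comparisons. Its share was 13.0% in SG-tut, 14.2% in SG-bam and 11.5% in SG-bgcn, against 0.0405% in SC in each table. In dissected SG it was 0.865%. Its gene level was 58.7 in SG-tut, 70.2 in SG-bam, 53.0 in SG-bgcn and 68.3 in SG, against 51.1 in SC, so the gene level differed little. beat-IIIc, of the Beat family of immunoglobulin-domain axon guidance proteins, had a share of 100% in all 4 mitotic groups and between 0.508% and 0.658% in SC. Its gene level was 1.03 in SG-tut, 2.59 in SG-bam, 3.37 in SG-bgcn and 4.69 in SG, against 40.7 in SC. Ndae1, a sodium-driven anion exchanger, had 100% in SG-bam and 0.0123% in SC at a gene level of 3.86 in SG-bam and 2131 in SC. Nse4, a subunit of the Smc5/6 complex, had 11.9% in SG-tut and 0.038% in SC. CG12025 had 7.58% in SG-bgcn and 0.0136% in SC.

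Over all crossing extensions 512 of 580 calls (88.3%) had the higher mitotic share, with 98.0% in SG, 79.8% in SG-tut, 85.3% in SG-bam and 83.8% in SG-bgcn. The counts of the lists that follow stand against these percentages. A list with few calls, all on the mitotic side, is near them and is not set apart by its direction.

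Cell cycle and spindle genes had 5 members among the crossing extensions, of a list of 70. Calls with the higher mitotic share numbered 2 in SG, 3 in SG-tut, 2 in SG-bam and 3 in SG-bgcn, and calls with the higher SC share 0, 2, 1 and 1. Besides stg, wdb and mts were higher in the mitotic groups. wdb, a regulatory subunit of protein phosphatase 2A, had a share of 100% in SG, 33.5% in SG-tut and 35.6% in SG-bgcn, against 6.51% in SC. The catalytic subunit of the same phosphatase, mts, had a share of 0.455% in SG-tut, 0.499% in SG-bam and 0.344% in SG-bgcn, against at most 0.0356% in SC. In the other direction Bub1, a kinase of the spindle checkpoint, had 0.107% in SG-tut and 1.60% in SC. gammaTub37C, a gamma-tubulin of the female germ line, had a share of 46.5% in SG-tut, 87.8% in SG-bam and 6.10% in SG-bgcn, against 100% in SC. Its extension level in SC was 111.9 or 153.5 against a gene level of 2.1, and the extension touches the neighbour CG46059.

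Stem cell and spermatogonial regulators had 4 members of a list of 43, with 3 calls in SG, 2 in SG-bam and 2 in SG-bgcn, all higher in the mitotic group, and none listed in SG-tut. Mad, the Smad that carries BMP signals, had a share of 42.0% in SG and 0.843% in SC, and 2.56% in SG-bam and 0.923% in SC. A2bp1, the fly Rbfox RNA-binding protein, had 61.6% in SG-bam and 0.00975% in SC, and 100% in SG-bgcn and 0.0101% in SC. Its gene level was 14.6 in SG-bam and 0.51 in SG-bgcn, against 2320.35 in SC. zfh1, a zinc-finger homeodomain factor of the somatic cyst lineage, had 100% in SG and 16.1% in SC, and 44.3% in SG-bgcn and 17.0% in SC. In SG-bam its share was 41.2%, against 16.7% in SC, without a call (FDR 0.0556 in the authors' deposited table). stai, the microtubule regulator stathmin, had 0.548% in SG and 0.0531% in SC.

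Translation and mRNA localisation control had 6 members of a list of 48, with 2 calls in SG, 3 in SG-tut, 4 in SG-bam and 4 in SG-bgcn. All 13 were on the mitotic side, against 88.3% of all crossing calls. The smallest differences were those of CG11505, with a share of 0.800% in SG-tut and 0.788% in SC, and 0.986% in SG-bam and 0.781% in SC. gw, the GW182 protein that Argonaute recruits to silence microRNA targets, had a share of 5.55% in SG and 0.195% in SC, 0.904% in SG-tut and 0.173% in SC, 1.004% in SG-bam and 0.173% in SC, and 0.997% in SG-bgcn and 0.171% in SC. Its extension on chromosome 4 reached 780 bases past the end for SG and at least 2420 in the mutants. AGO1, which binds microRNAs, had 100% in SG and 26.1% in SC, and was the only small RNA gene of a list of 29. BicD, which couples RNA cargo to the motor dynein, had 6.34% in SG-tut, 7.30% in SG-bam and 6.62% in SG-bgcn, against 1.20% to 1.22% in SC. stau, a double-stranded RNA-binding protein of mRNA localisation, had 4.13% in SG-bgcn and 0.277% in SC. The splicing and nuclear RNA-binding list had 2 members of 41, both hnRNPs and both higher in the mitotic groups. Hrb87F had a share of 0.916% in SG-tut and 0.0379% in SC, and 0.514% in SG-bam and 0.04% in SC. Hrb27C had 1.89% in SG and 0.285% in SC, and 0.503% in SG-bgcn and 0.285% in SC. No member of the lists of 32 polyadenylation factors and 81 chromatin, cohesin and replication genes had a crossing autosomal extension. This holds for the listed genes only. The chromatin protein gene Yeti and the Smc5/6 gene Nse4 were not on the list of 81 and had such extensions.

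The list of cytosolic ribosomal proteins had the highest number of members, 10 of 89. All 16 calls, RpL5 included, were higher in the mitotic group, against 88.3% of all crossing calls. There were 6 in SG, 4 in SG-tut, 4 in SG-bam and 2 in SG-bgcn, and apart from RpL5 the shares were below 1%. RpS7 had a share of 0.0284% in SG and 0.00207% in SC, and 0.0623% in SG-bam and 0.00233% in SC. RpS3 had 0.396% in SG-bam and 0.00519% in SC. Ribosomal protein genes also had the 3 highest gene levels of called members in SG, SG-tut and SG-bam. In SG-bgcn the highest was that of RpL10, at 4698. The gene level of RpS7 was 9303 in SG and 802.7 in SC, that of RpS26 4911 in SG-tut and 281.6 in SC, and that of RpL13 3290.24 in SG-bam and 198.6 in SC. RpL5, 1 of the 16 calls, was listed with a gene level of 0 in SG-bgcn and 21.2 in SC, and as every cell uses this gene no direction is read from it.

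Among transcription factors 9 of a list of 134 had crossing extensions, with 7 calls in SG, 0 in SG-tut, 0 in SG-bam and 2 in SG-bgcn on the mitotic side. jing, a zinc-finger protein, had 100% in SG and 5.39% in SC at gene levels of 3.14 in SG and 0.98 in SC. psq, a BTB-domain protein, had 9.02% in SG and 0.358% in SC, and the Hox gene abd-A 9.68% in SG and 0.491% in SC. The Sox gene D was the only one on the SC side, in SG-bam, where its extension was listed at 0 at a gene level of 0.04, against an extension level of 7.21 and a gene level of 17.7 in SC. Kinase, phosphatase and calcium signalling had 6 members of 105, with 3 calls in SG, 4 in SG-tut, 2 in SG-bam and 3 in SG-bgcn. All 12 were on the mitotic side, against 88.3% of all crossing calls. They include the calls of wdb and mts, which are also counted with the cell cycle genes. Kinase genes that were not on this list went both ways. SRPK and Gprk2 were on the mitotic side in all 4 comparisons, and Bub1 and Pi3K21B on the SC side in SG-tut. gish, a casein kinase 1, had 10.5% in SG-tut, 10.6% in SG-bam and 11.1% in SG-bgcn, against 0.251% to 0.253% in SC. aPKC, an atypical protein kinase C of cell polarity, had 27.3% in SG-tut and 1.39% in SC.

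Adhesion and axon guidance genes had 8 members of a list of 88, with 6 calls in SG, 2 in SG-tut, 3 in SG-bam and 2 in SG-bgcn. All 13 were on the mitotic side, against 88.3% of all crossing calls and 98.0% of those in SG. Both partners of a guidance pair were among them. PlexA, a receptor for semaphorins, had a share of 64.7% in SG, 6.68% in SG-tut, 7.44% in SG-bam and 7.81% in SG-bgcn, against 0.476% to 0.482% in SC. The semaphorin Sema-1a had 100% in SG and 8.40% in SC. Ephrin had 42.6% in SG and 0.401% in SC. Genes of this kind that were not on the list went both ways. In all 4 comparisons beat-IIIc was on the mitotic side and the adhesion protein gene NijC on the SC side. Ubiquitin and SUMO genes had 2 members of 72, both on the mitotic side wherever called. The ubiquitin ligase gene gol was not on this list and was called on the SC side in the 3 mutants. The ubiquitin protease gene puf had 98.0% in SG-tut, 98.8% in SG-bam and 95.9% in SG-bgcn, against 4.149% to 4.165% in SC. Su(var)2-10, a SUMO ligase of the PIAS family, had 21.9% in SG, 15.7% in SG-tut, 18.3% in SG-bam and 17.6% in SG-bgcn, against 8.59% in SC. Membrane traffic and metabolism had 5 members of 104, with 6 calls on the mitotic side (4 in SG, 1 in SG-tut and 1 in SG-bam) and 3 on the SC side. The SC-side calls were all those of Amy-p, in the 3 mutants. On the mitotic side Rab8, a GTPase of secretion, had 1.20% in SG and 0.00516% in SC, and Arf102F had 0.154% in SG and 0.00281% in SC.

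Spermatocyte and spermatid genes had 3 members of a list of 75. aly, which switches on the spermatocyte transcription programme, had a share of 8.11% in SG-bam and 0.849% in SC, and 8.43% in SG-bgcn and 0.588% in SC, although its gene level was 23.4 in SG-bam and 18.2 in SG-bgcn, against 72.7 in SC. The protein kinase A gene Pka-C1 had 11.345% in SG and 4.15% in SC. Prosalpha4T2, a testis proteasome subunit, was called on the SC side with an extension listed at 0 in SG-bgcn at a gene level of 0.01. The somatic and muscle list had 4 members of 49, and all 5 calls were higher in the mitotic group. Besides dally and zfh1, the collagen gene Cg25C had 11.1% in SG and 6.05% in SC, and the muscle tropomyosin gene Tm2 3.50% in SG-bgcn and 0.332% in SC. The gene level of Cg25C was 7.94 in SG and 0.56 in SC, and that of Tm2 was 67.0 in SG-bgcn and 4.52 in SC.

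Crossing extensions with the higher share in SC were few and often rested on little signal in the mitotic group. They came from 39 genes. The extension was listed at 0 in the mitotic group for 0 of 4 SG calls, 13 of 24 SG-tut calls, 7 of 19 SG-bam calls and 12 of 21 SG-bgcn calls, and no direction is read from those single genes. The gene level was below 1 in the mitotic group for 2, 12, 5 and 12 of these calls, and it was lower than in SC for 4, 20, 16 and 18. Among the calls with an extension level above 0 the median share was 2.03% in SG and 2.81% in SC, 0.732% in SG-tut and 12.0% in SC, 0.880% in SG-bam and 5.10% in SC, and 3.98% in SG-bgcn and 21.0% in SC. CG33970 had 0.282% in SG-tut, 0.849% in SG-bam and 0.121% in SG-bgcn, against 12.0% in SC. gol, a membrane-bound ubiquitin ligase, had 3.81% in SG-tut, 5.64% in SG-bam and 4.59% in SG-bgcn, against 43.8% to 44.2% in SC. Amy-p, the digestive enzyme amylase and a member of the membrane traffic and metabolism list, had 0.0446% in SG-tut and 0.0314% in SG-bam, against 55.6% in SC. Its gene level was 53.9 in SG-tut and 77.1 in SG-bam, against 2.66 in SC. Pi3K21B, the regulatory subunit of PI3 kinase, had 0.0552% in SG-tut and 2.14% in SC, and CG31988 0.102% in SG-bam and 1.12% in SC. The taste receptor gene Gr61a had 3.98% in SG-bgcn and 26.3% in SC, and CG14069 0.315% in SG and 0.537% in SC.

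A set of 31 genes had a crossing extension in each of the 4 tables, which all use the same SC averages, and 122 of these 124 rows were called. In 29 the share was higher in all 4 mitotic groups, and in NijC and Cyp12c1 it was higher in SC throughout. The median share of the 31 was 24.6% in SG and 1.29% in SC, 15.7% in SG-tut and 1.29% in SC, 18.3% in SG-bam and 1.45% in SC, and 17.6% in SG-bgcn and 1.45% in SC. Rows without a call were CG8735 in SG (FDR 0.0665) and CG10289 in SG-tut (FDR 0.0552) in the authors' deposited table.

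**Figure D4:**
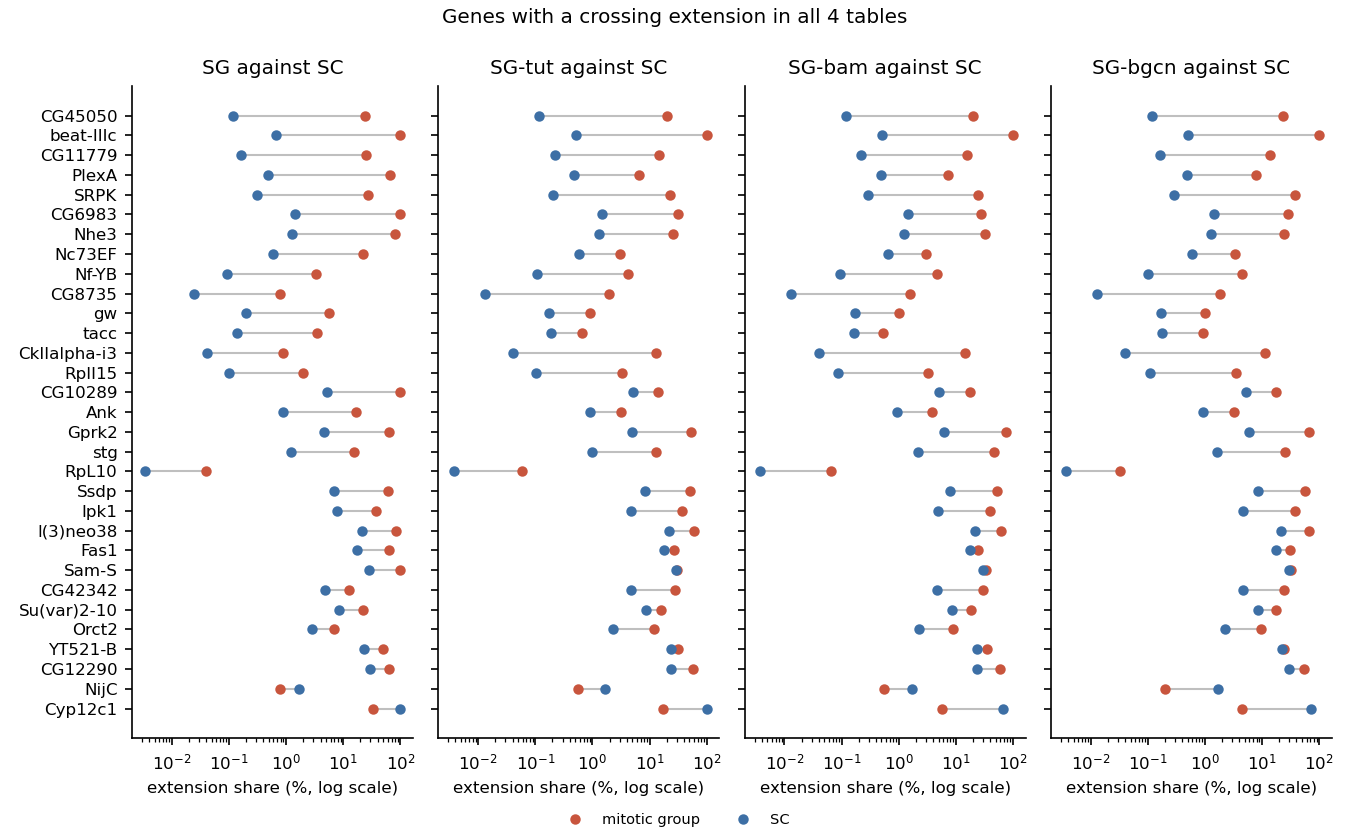
Extension share in percent on a log axis for the 31 genes with a crossing extension in all 4 tables, with the mitotic group in red and SC in blue, joined by a grey line. Genes are ordered by the authors' log2 fold of the share in SG over SC; in 29 genes the red point lies to the right in every panel, and in NijC and Cyp12c1 to the left.

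Within these 31 genes some shares differed widely between SG and the mutants. Nc73EF, a subunit of 2-oxoglutarate dehydrogenase, had a share of 22.3% in SG, 3.01% in SG-tut, 3.04% in SG-bam and 3.30% in SG-bgcn, against 0.582% to 0.639% in SC. The gene level of Nc73EF was 36.1 in SG, 118.66 in SG-tut, 108.65 in SG-bam and 113.7 in SG-bgcn, against 13.35 in SC. Ank, the cytoskeletal adaptor ankyrin, had 16.7% in SG, 3.11% in SG-tut, 3.85% in SG-bam and 3.26% in SG-bgcn, against at most 0.927% in SC. Nhe3, a sodium-proton exchanger, had 80.1% in SG, 25.6% in SG-tut, 32.2% in SG-bam and 24.6% in SG-bgcn, against at most 1.29% in SC. tacc, a coiled-coil protein of centrosomes and spindles, had 3.42% in SG, 0.663% in SG-tut, 0.540% in SG-bam and 0.907% in SG-bgcn, against at most 0.190% in SC. SG against the mutants was not tested, and dissection and kit differ between them.

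For the genes that follow, the shares of the 4 mitotic groups lay within 2 times of one another, which was not tested. Ssdp, a partner of LIM-domain transcription complexes, had 59.7% in SG, 51.4% in SG-tut, 53.3% in SG-bam and 56.0% in SG-bgcn, against 6.85% to 8.35% in SC. SRPK, the kinase of SR splicing factors, had 26.9% in SG, 22.7% in SG-tut, 24.6% in SG-bam and 37.98% in SG-bgcn, against 0.205% to 0.313% in SC. CG45050 had 23.8% in SG, 20.3% in SG-tut, 20.1% in SG-bam and 23.6% in SG-bgcn, against 0.118% in SC. Gprk2, a G protein-coupled receptor kinase, had 62.6% in SG, 52.3% in SG-tut, 76.6% in SG-bam and 67.5% in SG-bgcn, against at most 6.33% in SC. Ipk1, an inositol phosphate kinase, had 37.7% in SG, 36.8% in SG-tut, 39.0% in SG-bam and 38.2% in SG-bgcn, against at most 7.77% in SC. Nf-YB, a subunit of the NF-Y transcription factor, had 3.37% in SG, 4.27% in SG-tut, 4.70% in SG-bam and 4.49% in SG-bgcn, against at most 0.109% in SC. RpII15, a subunit of RNA polymerase II, had 1.95% in SG, 3.24% in SG-tut, 3.32% in SG-bam and 3.52% in SG-bgcn, against at most 0.108% in SC.

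For 3 genes of the set the share differed by less than 2-fold in every mutant although the rows were called. The difference was smallest for Sam-S in SG-tut and SG-bam, and for YT521-B in SG-bgcn. Sam-S, which makes the methyl donor S-adenosylmethionine, had 100% in SG and 28.0% in SC, but 30.8% in SG-tut, 33.4% in SG-bam and 32.6% in SG-bgcn, against 29.4% in SC. YT521-B, a nuclear reader of N6-methyladenosine, had 50.5% in SG and 22.8% in SC, but 31.1% in SG-tut and 23.8% in SC, 35.1% in SG-bam and 23.8% in SC, and 24.1% in SG-bgcn and 22.3% in SC. Its gene level was 53.7 in SG-tut, 52.1 in SG-bam and 54.4 in SG-bgcn, against 0.39 in SC, and its FDR in SG-tut was 4.71e-41 in the authors' deposited table. Fas1, the adhesion protein fasciclin 1, had 26.9% in SG-tut, 24.7% in SG-bam and 30.9% in SG-bgcn, against 17.8% to 17.9% in SC. Such FDRs are not read as a test of the share. A 2-fold or larger difference of the share was found for 190 of 202 SG calls and 104 of 119 SG-tut calls. It was found for 112 of 129 SG-bam calls and 115 of 130 SG-bgcn calls.

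On the SC side of the set, Cyp12c1, a cytochrome P450, had a share of 32.9% in SG, 16.9% in SG-tut, 5.67% in SG-bam and 4.52% in SG-bgcn, against 100%, 100%, 65.9% and 71.6% in SC in the same tables. Its gene level was 0.4 in SG, 1.63 in SG-tut, 1.2 in SG-bam and 2.12 in SG-bgcn, against 2.56 in SC. NijC, of the Ninjurin family of adhesion proteins, had 0.792% in SG, 0.549% in SG-tut, 0.543% in SG-bam and 0.201% in SG-bgcn, against 1.70% in SC.

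The larger shares came with both higher and lower gene levels. Of the 198 calls with the higher share in SG, 126 had a higher and 72 a lower gene level in SG, and the gene level differed by less than 2-fold for 66. The gene level was higher in the mutant for 71 of 95 SG-tut calls, 79 of 110 SG-bam calls and 76 of 109 SG-bgcn calls. The median log2 fold of the gene level over all crossing rows was 0.67 in SG, 0.97 in SG-tut, 0.999 in SG-bam and 0.70 in SG-bgcn in the authors' deposited table, while that of the extension level was 4.70, 4.45, 4.35 and 4.62. At the top of the share, 37 of 207 crossing extensions had 100% in SG and 1 in SC, which means that the extension level was at least the gene level. Such extensions numbered 3 in SG-tut and 2 in SC, 4 in SG-bam and 1 in SC, and 5 in SG-bgcn and 1 in SC. The SC gene level was below 1 for 25 of 207, 10 of 123, 14 of 132 and 16 of 136 crossing rows. msopa, a male-specific gene, was the 1 gene with the extension listed at 0 in SC, in the 3 mutant tables. Its extension level was 3.82 in SG-tut, 2.28 in SG-bam and 2.47 in SG-bgcn, and its gene level 1389 in SG-tut, 264.4 in SG-bam and 1121 in SG-bgcn, against 2.52 in SC.

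**Figure D5:**
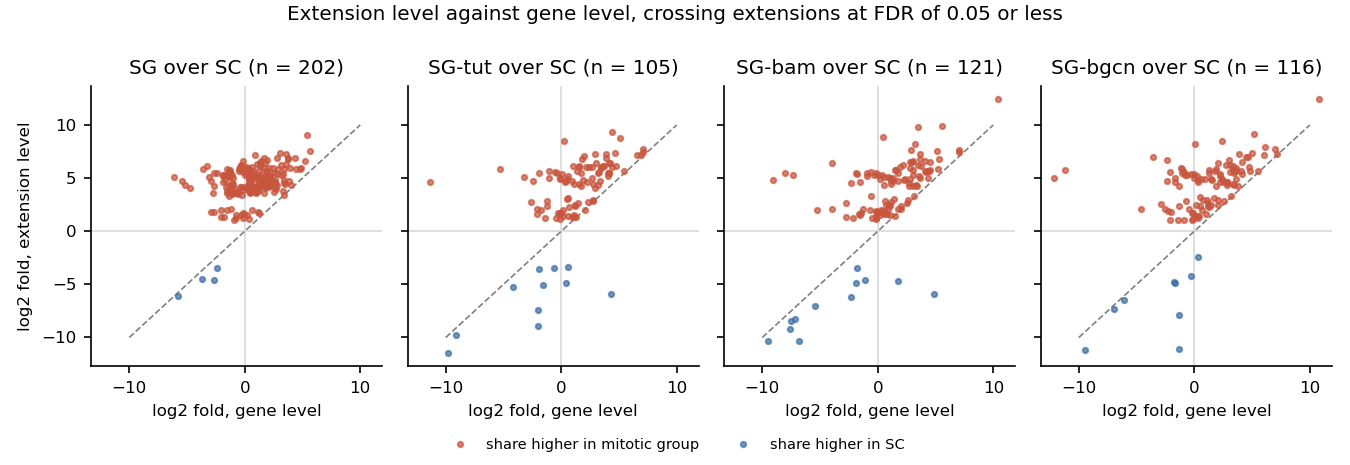
Authors' log2 fold of the gene level (x axis) and of the extension level (y axis), mitotic group over SC, for called crossing extensions with levels above 0 in both groups (202, 105, 121 and 116 points). Red points have the higher share in the mitotic group and blue points in SC. On the dashed line both folds are equal, so red points lie above it by how they were coloured. They occur on either side of the zero of the gene level.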

How the data were processed

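RNA sequencing of 12 testis libraries was used as 4 deposited tables, each of 1 mitotic group against SC. Per the submitters' processing notes, build dm6, TopHat2 2.1.0, Cuffdiff 2.2.1, Cufflinks 2.2.1, DESeq2, Trimmomatic 0.33, FastQC 0.11.3 and CASAVA were used, with no role named. Per the file headers, the deposited values are group averages of a level of each extension and gene (a score whose unit is not named), the fraction of the 3′ reads in the long form, log2 folds, p-values and FDR. How extensions were defined and rows selected is not stated there. The fraction, printed as a percentage, equals extension over gene level, each with 1e-05 added, capped at 1, in 2634 of 2634 deposited rows.

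Positions were compared with Python 3.11.15 and pandas 2.3.3, and the classification was tested on simulated intervals. Exons and 3′ UTRs came from Ensembl release 115 (same assembly as dm6); 10 rows were matched by symbol. Replicates may be technical, since the labels name no separate flies. As the tables hold averages, no test was run beyond the authors' FDR. The members and the 15 gene lists were chosen with earlier results of these data known. Named genes are stg, genes crossing in all 4 tables, and, among called rows of each table, the 5 largest share folds in each direction (gene level of at least 1 and extension above 0 in both groups), the 5 longest reaches and the 3 highest gene levels in the mitotic group. Up to 4 members per list with the largest folds were added.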

Additional observations from a re-analysis of the deposited data

How the results depend on the processing

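Each of 20 results (calls in each direction, median reach and median shares of called rows per table) was recomputed under up to 9 alternatives. Of 164 values 146 stayed within 1.5 times the reported one and 18 did not; no count of calls changed which side was larger. Requiring 50 bases inside and 50 past the end, which leaves fewer rows, gave 130 calls higher in SG, 56 in SG-tut, 69 in SG-bam and 65 in SG-bgcn, 11 higher in SC in the SG-bam table, and for SG-tut a median reach of 249 bases and median shares of 3.60% in SG-tut and 0.848% in SC. Requiring a gene level of at least 1 in both groups left 2, 12 and 9 calls higher in SC in the SG, SG-tut and SG-bgcn tables and a median SC share of 0.851% in the SG table. Leaving out extensions listed at 0 left 11, 12 and 9 calls higher in SC in the SG-tut, SG-bam and SG-bgcn tables and a median share of 11.9% in SG-tut. Adding 0.01 to both levels gave 15 calls higher in SC in the SG-tut table and a median share of 10.5% in SG-tut; the cause was not tested. No value moved by more than 1.5 times with an FDR of 0.01, the reference annotation's gene ends or inclusion of the X chromosome. The same held on leaving out extensions on exons of other genes. Direction by the extension level could not change any count, since it was that of the share in 2634 of 2634 rows. Its values are nonetheless among the 146. No paired analysis was possible because the tables hold group averages, and for the same reason no library could be left out. The planned comparisons of sequence motifs were not run, as no genome sequence was used here. Depth per library is unknown and limits the shares of genes with low levels.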

Other observations

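The fold of the extension level was not spread evenly in the deposited tables. Over the crossing extensions with the higher extension level in the mitotic group, no log2 fold in the authors' deposited table lay between 3.104 and 4.11 with SG-tut, between 3.32 and 4.25 with SG-bam or between 3.36 and 4.11 with SG-bgcn, while 31, 42 and 35 lay below the gap and 68, 71 and 79 above it. Over all listed rows of these tables the gap ran from 3.11 to 4.09 with SG-tut, from 3.32 to 4.07 with SG-bam and from 3.36 to 4.11 with SG-bgcn. For SG the widest empty stretch of the crossing extensions ran from 2.098 to 3.06, with 19 below and 184 above. The SC extension level had a median of 0.402 below the gap and 0.101 above it with SG-tut. It was 0.577 below and 0.0984 above with SG-bam, and 0.544 below and 0.102 above with SG-bgcn.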
